A study of Mus musculus with 16 samples.

Results

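The comparison described here set all 8 challenged livers against all 8 control livers of the series, so that its members were 16 of 16 samples. All were whole liver of male wild-type C57BL/6J mice. The injection experiment used carbon tetrachloride (CCl4), which pericentral hepatocytes turn into a toxic radical. It was mixed with olive oil in equal volumes for 3 samples, 3 control samples came after the oil alone, and all livers were collected on day 3 after this intraperitoneal dose of 2 µL per g. In the surgical part of the study, 5 samples came from the liver tissue resected at partial hepatectomy (PH, day 0), which served as controls, and 5 from the liver at day 3 after it. The challenged group therefore joined CCl4 and PH day 3, and the control group joined olive oil and PH day 0. An additive model estimated 1 challenge effect per gene, called the common response, with the experiment as a covariate, so that the different baselines of the 2 experiments did not enter it. The labels give no ages, and the PH controls had no operation before they were taken, whereas the olive oil controls had an injection.

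The liver regrows after loss of tissue or of cells mainly by division of the remaining hepatocytes, which are quiescent in the adult. Cells leave quiescence through G1, copy their DNA under control of E2F transcription factors, and then switch on a later set of genes for mitosis that is controlled by the DREAM and MuvB complexes and by FOXM1. Hepatic stellate cells lay down matrix and release growth factors, macrophages clear dead cells, and hepatocytes have been described to lower parts of their metabolic program while they divide. Common changes are of interest because CCl4 kills cells with inflammation and scar formation, whereas PH removes whole lobes and leaves the rest of the tissue intact.

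Expression was measured by sequencing of polyadenylated RNA and is given as CPM, counts scaled to a common library total, with library sizes scaled by TMM factors, while changes are log2 fold changes ± SE. A gene is said to rise or fall where its edgeR quasi-likelihood adjusted p was under 0.05. Total counts were 2795909 to 8647503 per sample. The hepatocyte product albumin was the check of the tissue, and Alb stood at 47936 to 80126 CPM in the 8 controls (median 61008) and 66982 to 100568 CPM in the 8 challenged livers (median 86497). The library of CCl4 replicate 1 stood apart from the other 2 of its group, at a chi-square per degree of freedom of 71.7 and 72.3 against them, where they differed from each other by 8.97. Without it, 1930 genes rose and 1715 fell in the common response, and the counts below include it. TMM factors were 0.98 to 1.31 in challenged and 0.86 to 0.97 in control livers. Scaled by library size alone, the median change of all genes went from 0.01 to 0.26, and 85.3% instead of 53.5% of the calls were rises. Falls are therefore falls relative to the other genes of the same library. In whole tissue, fewer cells of a type and less RNA per cell cannot be told apart.

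In the common response, 1934 of 11868 tested genes rose (16.3%) and 1678 fell (14.1%). The median change was 0.89 among genes that rose and -0.57 among those that fell, and an absolute change of at least 1 was found in 848 risen and 299 fallen genes. The 8 challenged samples lay above all 8 controls for 424 genes (3.57%) and below all of them for 387 (3.26%). A call in the joint model does not by itself show that both challenges moved a gene, so each experiment was also tested alone. After CCl4, 1266 genes rose (10.7%) and 1353 fell (11.4%), and after PH 1154 rose (9.72%) and 908 fell (7.65%). Rises in both on their own numbered 592 genes (4.99%), and falls in both 514 (4.33%).

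**Figure D1:**
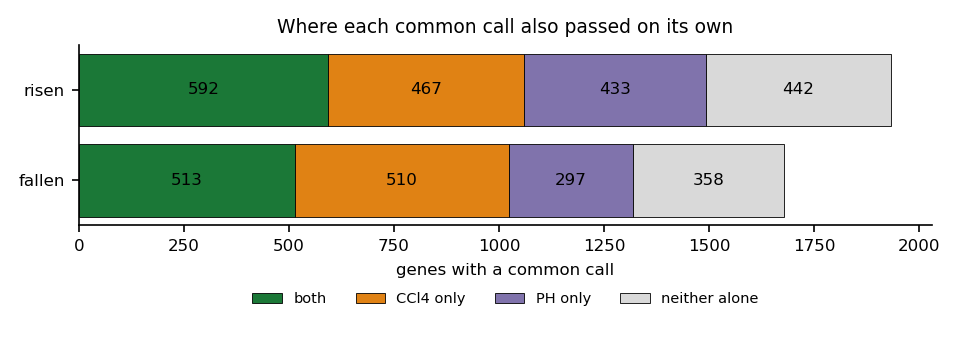
Bars count the genes with a common call, risen above and fallen below, split by whether the gene also passed with CCl4 and PH each tested alone. Of 1934 risen genes 592 passed in both and 442 in neither, and of 1678 fallen genes 513 passed in both and 358 in neither.

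Thus 30.6% of the risen and 30.6% of the fallen common calls also passed in both experiments alone. Another 467 risen and 510 fallen genes passed only with CCl4, and 433 and 297 only with PH. The 2 experiments had opposite signs for 8 of the risen and 5 of the fallen calls. The size of the change was larger with CCl4 for 1422 of the risen (73.5%) and 1379 of the fallen calls (82.2%), at median changes of 1.07 against 0.72 and of -0.80 against -0.43. The same share among all tested genes was not computed, and the CCl4 values rest on 6 samples against 10. These shares alone therefore do not show a stronger response to CCl4. The test of the difference between the 2 responses called 633 genes over the whole table (5.33%), among them 101 of the risen and 270 of the fallen common calls. In all but 3 of those 101 and 1 of those 270 the larger change was that with CCl4.

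**Figure D2:**
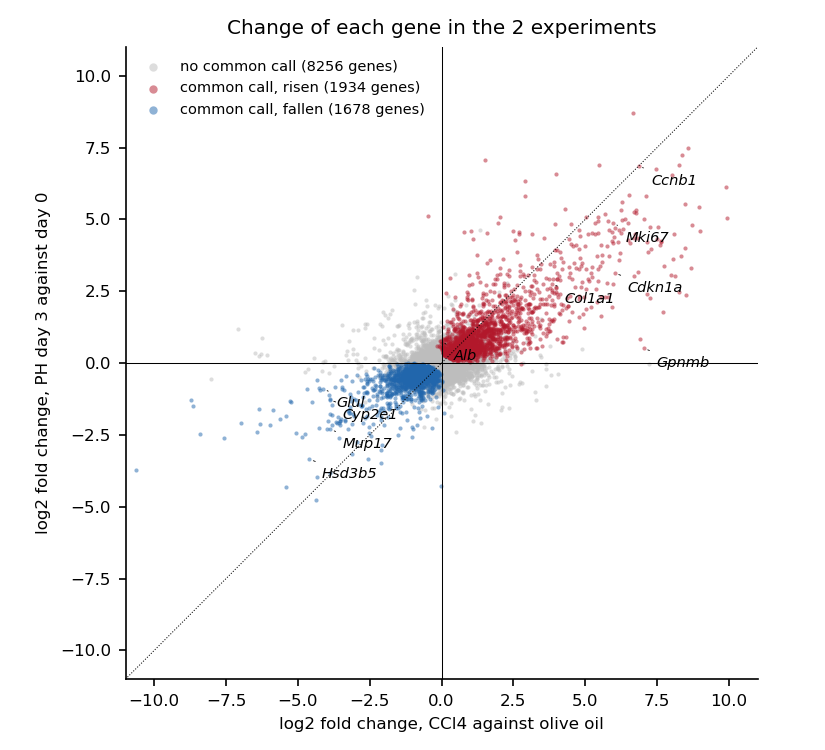
Each point is 1 of 11868 genes, with its log2 fold change after CCl4 on the horizontal and after PH on the vertical axis, and the dotted line marks equal changes. Risen common calls (1934) lie to the upper right and fallen ones (1678) to the lower left, mostly on the side of the larger change after CCl4. Changes of genes with almost no counts in a group depend on the prior count of the fit.

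Genes of G2 phase and mitosis rose throughout. All 36 tested members of the list rose in the common response and in each experiment alone, at a median of 4.84 (5.67 after CCl4, 4.26 after PH), where the median of all genes was 0.01. Members such as Anln, Aurkb and Ccnb1 were too low in the controls to enter the test without the challenged livers. The count of 36 is therefore partly fixed by the filter. Mki67 (chromosome 7 of GRCm38, minus strand, 135689784 to 135716361), the gene of the Ki-67 antigen of cycling cells, stood at 2.00, 2.42 and 1.42 CPM after olive oil and 65.3, 187 and 124 CPM after CCl4. For the same gene the surgical samples gave 1.31, 0.248, 1.33, 5.31 and 1.37 CPM at day 0 and 33.8, 45.03, 51.8, 86.1 and 65.1 CPM at day 3. Every challenged sample was above every control, and the common change was 5.33 ± 0.41, adjusted p = 3.9e-07. Cdk1, the kinase that drives entry into mitosis, stood at 0.248 to 3.07 CPM in the 8 controls (median 1.45) and 17.4 to 82.7 CPM in the 8 challenged livers (median 36.6), a change of 4.68 ± 0.29, adjusted p = 1.6e-09. Its rise was 4.49 after CCl4 and 4.83 after PH, and the difference between these did not pass (adjusted p = 0.85). Aurkb, a kinase of the chromosomal passenger complex, and Anln, which builds the cleavage furrow, changed by 5.20 ± 0.37, adjusted p = 1.5e-09 and 4.89 ± 0.33, adjusted p = 1.0e-09. The DNA topoisomerase Top2a also separated all challenged from all control samples and rose by 4.92, but more after CCl4 (7.28) than after PH (3.97, adjusted p of the difference 0.031).

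Several division genes were so low in the controls that a fold change is a lower bound or has a wide counting interval. Knl1, a scaffold of the kinetochore, had 0 counts in all 8 controls and 282 in the 8 challenged livers, at least 88.5-fold higher against a floor of 3 counts over the group. The helicase Pif1 had 0 and 256 counts, at least 80.3-fold higher. Cyclin B1, the partner of Cdk1, is encoded by Ccnb1, which had 2 counts in all controls and 400 in the challenged livers, a ratio of 188 with a 95% interval of 51.8 to 1560 that covers counting error only. The ratio was 165 for CCl4 and 188 for PH. Bub1, a spindle checkpoint kinase, had 2 counts in controls against 331, and Melk, another mitotic kinase, 2 against 233. Among genes called in both experiments alone, without overlap of the groups in either and with a mean of at least 5 CPM in challenged or control livers, these genes, with the microtubule-binding Hmmr, the kinetochore motor Cenpe and Cpe, were the 8 risen ones whose smaller change of the 2 experiments was the largest. Cpe encodes carboxypeptidase E, an enzyme that matures peptide hormones. It was the only one of these 8 outside cell division, and had 2 counts in controls and 212 in challenged livers. All 8 were too low in the controls to enter the test without the challenged livers. Their entry was therefore fixed by the filter, and their rank depends on the few or absent control counts.

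The promoters of these genes are shown because the 2 division lists differ in the letters they hold. RefSeq windows from 250 bases before to 50 after the start were matched for 29 of 36 tested mitosis genes and 27 of 34 replication genes, and 3 motifs were searched on both strands, with no test. They were CCAAT, bound by NF-Y, TTTGAA, the letters of the CHR element of MuvB, and the E2F-type letters TTTGGCGC, TTTCCCGC or TTCCCGCC. CCAAT was in 82.8% of the mitosis promoters, 63% of the replication promoters and 38.2% of all 20613 promoters matched. TTTGAA was in 75.9%, 18.5% and 16.8%, and the E2F-type letters in 0 of 29, in 51.9% and in 3.97%. Among promoters of all risen common calls (1497 matched), CCAAT was in 43.3%, TTTGAA in 15.9% and the E2F-type letters in 8.62%, against 41.3%, 11.6% and 3.98% of the 1280 promoters of fallen calls. Among tested genes these shares were 39.1%, 12.1% and 6.21%. Genes that rose in both experiments alone (448 promoters) held CCAAT and TTTGAA together in 15.4%, against 3.38% for genes that fell in both (385 promoters) and 5.02% of tested genes. A match is a description of letters and not a bound site. The 250 bases before the start of 4 mitosis genes and of 2 replication genes, Rrm1, a ribonucleotide reductase subunit, and Mcm2, a subunit of the replicative helicase, follow on their own strand, with matches in capitals (RefSeq, GRCm38.p6). Their places are chr11:99024190-99024439, minus strand for Top2a, chr10:69352913-69353162, minus strand for Cdk1, chr7:135716380-135716629, minus strand for Mki67, chr13:100786487-100786736, minus strand for Ccnb1, chr7:102441445-102441694, plus strand for Rrm1 and chr6:88898781-88899030, minus strand for Mcm2. Ccnb1 and Mcm2 are shown because they depart from the shares of their lists.
Top2a: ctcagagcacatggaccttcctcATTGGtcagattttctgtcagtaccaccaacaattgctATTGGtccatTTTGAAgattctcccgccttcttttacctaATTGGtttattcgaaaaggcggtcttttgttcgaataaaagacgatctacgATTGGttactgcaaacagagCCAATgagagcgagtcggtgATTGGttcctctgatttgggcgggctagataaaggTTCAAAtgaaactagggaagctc
Cdk1: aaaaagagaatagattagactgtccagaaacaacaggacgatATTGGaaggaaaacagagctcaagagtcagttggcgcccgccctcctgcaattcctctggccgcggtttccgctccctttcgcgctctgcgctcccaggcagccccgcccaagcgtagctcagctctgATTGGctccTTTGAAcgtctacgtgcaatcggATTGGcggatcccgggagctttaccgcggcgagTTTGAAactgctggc
Mki67: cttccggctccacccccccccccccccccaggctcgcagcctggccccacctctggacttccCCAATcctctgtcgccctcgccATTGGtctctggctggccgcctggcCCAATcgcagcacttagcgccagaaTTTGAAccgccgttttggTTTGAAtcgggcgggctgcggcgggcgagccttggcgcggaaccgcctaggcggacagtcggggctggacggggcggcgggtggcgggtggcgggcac
Ccnb1: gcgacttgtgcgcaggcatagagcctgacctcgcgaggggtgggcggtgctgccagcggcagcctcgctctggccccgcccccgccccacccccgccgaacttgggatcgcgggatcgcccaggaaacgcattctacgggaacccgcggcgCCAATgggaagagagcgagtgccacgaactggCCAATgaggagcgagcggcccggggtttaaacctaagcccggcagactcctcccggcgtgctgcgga
Rrm1: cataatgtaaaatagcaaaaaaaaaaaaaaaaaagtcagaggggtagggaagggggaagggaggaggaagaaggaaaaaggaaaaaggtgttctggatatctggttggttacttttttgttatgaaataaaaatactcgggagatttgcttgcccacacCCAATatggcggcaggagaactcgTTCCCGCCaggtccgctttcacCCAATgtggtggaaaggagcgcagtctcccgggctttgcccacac
Mcm2: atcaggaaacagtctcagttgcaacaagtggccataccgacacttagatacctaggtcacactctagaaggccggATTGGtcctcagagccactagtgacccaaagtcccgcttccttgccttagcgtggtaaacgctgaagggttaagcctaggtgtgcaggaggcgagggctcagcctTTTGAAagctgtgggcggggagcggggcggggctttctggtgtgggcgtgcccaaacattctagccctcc
Top2a holds 6 CCAAT matches and 2 of TTTGAA, Cdk1 holds 3 and 2 and Mki67 3 and 2, none with E2F-type letters. Rrm1 holds 2 CCAAT matches around 1 of TTCCCGCC and no TTTGAA. Ccnb1, a mitosis gene, holds 2 CCAAT matches but no TTTGAA, as does Aurka, another mitotic kinase gene. Mcm2, a replication gene, holds 1 match of TTTGAA and 1 of CCAAT but no E2F-type letters, and the replication genes Lig1 and Pcna hold neither TTTGAA nor E2F-type letters in these 250 bases.

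Genes that copy DNA rose as well, but by less. Of 34 tested replication genes 30 rose and 1 fell, at a median of 1.43 (2.20 after CCl4, 0.84 after PH). With CCl4 alone 29 rose and with PH alone 16, and the difference of the responses passed for 11. Lig1, the ligase that joins Okazaki fragments, stood at 0.686 to 3.23 CPM in the 8 controls (median 2.11) and 7.08 to 39.5 CPM in the 8 challenged livers (median 14.9) and changed by 3.12 ± 0.26, adjusted p = 1.7e-08. Rrm1, which makes deoxynucleotides, stood at 8.02 to 11.03 CPM in the 8 controls (median 9.67) and 21.7 to 69.8 CPM in the 8 challenged livers (median 34.2) and changed by 2.01 ± 0.17, adjusted p = 2.4e-08. Both separated all challenged from all control samples. Mcm2 rose by 3.00 after CCl4 and 1.41 after PH (adjusted p of the difference 0.027). The sliding clamp gene Pcna rose by 1.03, and its 0.54 after PH did not pass alone (adjusted p = 0.099). Pole, the leading-strand polymerase, rose by 4.18 after CCl4, while its 0.74 after PH did not pass (adjusted p = 0.18, adjusted p of the difference 7.2e-04). Mcm10 was the member that fell, by 1.40 on the log2 scale, with 63.1 to 174 CPM in the 8 controls (median 103) and 18.7 to 71.6 CPM in the 8 challenged livers (median 40.5). Its fall passed with CCl4 alone but not with PH alone.

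Of 20 G1 and E2F family genes 12 rose and 1 fell, at a median of 0.86. Ccnd1, the cyclin that starts the passage through G1, stood at 23.1, 49.9 and 44.3 CPM after olive oil and 109.5, 152 and 97.3 CPM after CCl4. The surgical samples held 31.5, 40.2, 28.6, 48.5 and 30.6 CPM at day 0 and 98.2, 118, 72.9, 58.5 and 118 CPM at day 3 for it. Its challenged samples all lay above its controls, with a change of 1.46 ± 0.19, adjusted p = 1.8e-05 that was close in size after CCl4 (1.59) and PH (1.37). The CDK inhibitor Cdkn2c, itself an E2F target, rose by 1.67. Rbl2, the pocket protein of resting cells, stood at 31.8 to 45.9 CPM in the 8 controls (median 43.1) and 21.7 to 29.9 CPM in the 8 challenged livers (median 25.4), a change of -0.69 ± 0.09, adjusted p = 6.7e-06 that was -0.72 after CCl4 and -0.70 after PH. Myc rose by 1.27 ± 0.39, adjusted p = 0.021, but by 2.63 after CCl4 and 0.53 after PH (adjusted p = 0.38), and without olive oil replicate 1 or 3 it did not pass. Of 18 p53 target genes 14 rose and none fell, at a median of 0.73, where 16.3% of all genes rose. With CCl4 alone 6 rose, with PH alone 10, and 6 rose in both experiments alone. Cdkn1a, the CDK inhibitor p21, led the list at 0.752, 1.10 and 1.42 CPM after olive oil and 129, 48.2 and 46.8 CPM after CCl4. Its surgical samples stood at 2.89, 1.24, 3.47, 6.23 and 4.80 CPM at day 0 and 34.5, 33.3, 28.6, 35.5 and 28.6 CPM at day 3. The common change was 4.03 ± 0.44, adjusted p = 1.1e-05, with 6.03 after CCl4 against 3.13 after PH (adjusted p of the difference 0.026). Gtse1, also a mitotic gene, rose by 2.61. Of 20 ribosome biogenesis genes Nop58 and Utp20 rose, 10% of the list where 16.3% of all genes rose, and the call of Utp20 was lost when any of 6 samples was left out.

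**Figure D3:**
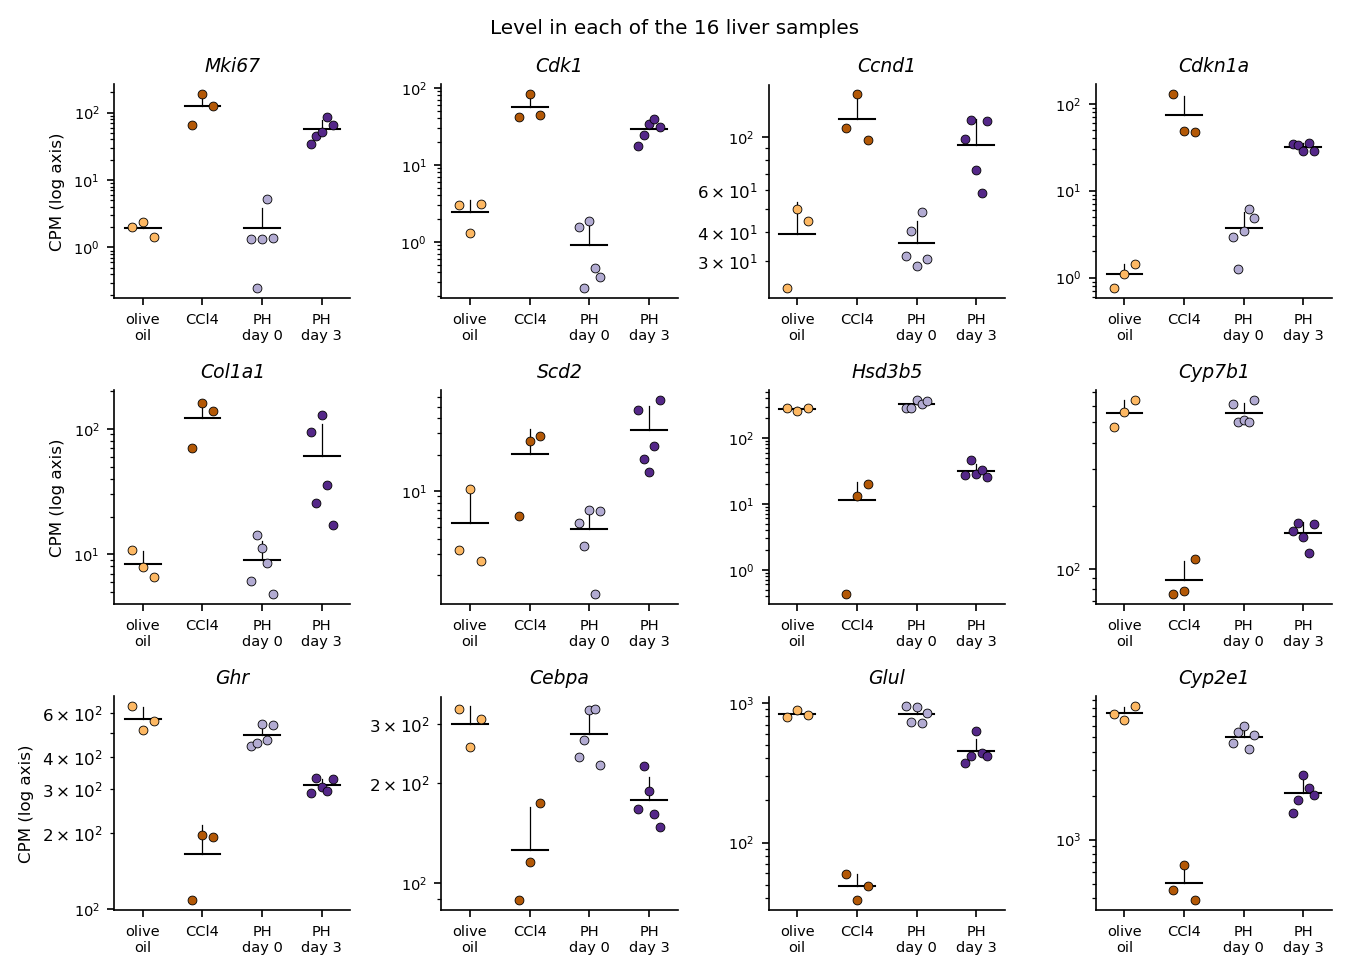
Points are CPM on a log axis for 12 genes in each of the 16 samples, by group, with the group mean as a line and 1 SD drawn upward from it. Mki67, Cdk1, Ccnd1, Cdkn1a and Col1a1 are higher in all 8 challenged samples than in any control, and Hsd3b5, Cyp7b1, Ghr, Cebpa, Glul and Cyp2e1 lower, with Glul and Cyp2e1 lowest after CCl4.

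Matrix genes rose after both challenges. Of 30 tested genes of the extracellular matrix and myofibroblasts 26 rose and none fell, at a median of 1.69 (2.29 after CCl4, 1.40 after PH), and 16 rose in both experiments alone. Col1a1, a chain of fibrillar type I collagen, stood at 10.8, 7.91 and 6.604 CPM after olive oil and 70.5, 159 and 138 CPM after CCl4. Surgical samples held 6.17, 14.2, 11.2, 8.54 and 4.80 CPM at day 0 and 94.1, 25.5, 128, 35.7 and 17.0 CPM at day 3, a wide spread at day 3 that did not reach down to the controls. The change was 3.18 ± 0.46, adjusted p = 1.7e-04. Col4a2 of the basement membrane and Loxl2, which crosslinks collagen, rose by 1.43 and 2.85, each in all 8 challenged samples above all controls. Acta2, the actin of myofibroblasts, rose by 2.33 ± 0.49, adjusted p = 0.0021, but its 2.16 after PH did not pass alone (adjusted p = 0.077). Of 14 stellate cell markers 7 rose, and Ecm1 fell (-0.94). The summed level of the 14 was 204 to 279 CPM after olive oil, 302 to 461 after CCl4, 198 to 384 at day 0 and 259 to 502 at day 3, so that the surgical groups overlapped. Of 26 genes of tubulins and actin remodelling 21 rose and none fell, at a median of 1.28 (2.14 and 0.70). The galectin gene Lgals1 and the annexin gene Anxa5 rose by 1.81 ± 0.16, adjusted p = 3.6e-08 and 1.34 ± 0.12, adjusted p = 5.1e-08.

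Markers of other cells moved unequally. Of 17 tested genes of monocytes and infiltrating macrophages 12 rose and none fell, at a median of 0.98, of which Cd9 and Ccl2 rose in both experiments alone. Their summed level was 75.7 to 203 CPM after olive oil and 379 to 417 after CCl4, against 109 to 151 at day 0 and 147 to 250 at day 3. Gpnmb, a gene of macrophages that take up lipid and debris, is a common call that rested on CCl4, since it stood at 0.501, 0.22 and 0.236 CPM after olive oil and 38.4, 46.8 and 49.7 CPM after CCl4. In the surgical samples it was 0.131, 0.248, 0.267, 0.462 and 0 CPM at day 0 and 0, 0.521, 0.943, 0 and 0.341 CPM at day 3, within overlapping ranges (adjusted p of the difference 0.0016). Trem2, a lipid receptor of the same cells, rose by 3.44 after CCl4, and its 0.82 after PH did not pass (adjusted p = 0.33). Gpnmb and Trem2 were too low in the controls to enter the test without the challenged livers, so the count of 12 is partly fixed by the filter. Of 14 Kupffer cell markers, the resident macrophages of the liver, Marco rose (2.61 ± 0.44, adjusted p = 5.1e-04) and Nr1h3 fell (-0.36, adjusted p = 0.38 with library-size scaling), and their sums overlapped between all groups at 368 to 829 CPM. Of 20 endothelial markers Stab1 and Lyve1 rose and Clec4g and Kdr fell (-0.51 and -0.65), 10% each way and below the shares of all genes (16.3% and 14.1%), and both falls were lost with library-size scaling (adjusted p = 0.19 and 0.083). Of 8 mesothelial markers 5 could be tested, without Upk1b, Krt14 and Gpm6a. All 5 rose at a median of 4.06, but with CCl4 alone 1 rose and with PH alone 4. The summed level of the 8 was 0.236 to 4.76 CPM after olive oil, 4.58 to 32.3 after CCl4, 1.05 to 2.06 at day 0 and 6.13 to 33.4 at day 3. Msln, a marker of the cells that line the organ surface, stood at 0 to 1.54 CPM in the 8 controls (median 0.134) and 0.981 to 13.2 CPM in the 8 challenged livers (median 5.53). Muc16 had 3 counts in all controls and 79 in the challenged livers, a ratio of 24.8 (95% interval 8.18 to 123). These levels are low beside hepatocyte genes, and their part in the rise of matrix genes was not tested. Msln and Muc16 were too low in the controls to enter the test without the challenged livers, so the count of 5 is partly fixed by the filter. Of 12 neutrophil markers only 3 could be tested, and S100a8 and S100a9 rose. With CCl4 alone none of the 3 rose and with PH alone 2. Both common calls were lost without CCl4 replicate 1 or olive oil replicate 3, and with limma-voom or without the experiment covariate. S100a8 also lost it without PH day 3 replicate 15 or olive oil replicate 1. Red cell genes Alas2 and Hba-a1 fell, with summed levels of 441 to 517 CPM after olive oil, 134 to 244 after CCl4, 760 to 2059 at day 0 and 695 to 1898 at day 3. The call of Hba-a1 was lost without any 1 of 5 samples, among them each CCl4 sample, and with library-size scaling (adjusted p = 0.12). Of 5 tested cholangiocyte genes Krt19 and Spp1 rose, and neither of 2 lymphocyte genes passed.

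**Figure D4:**
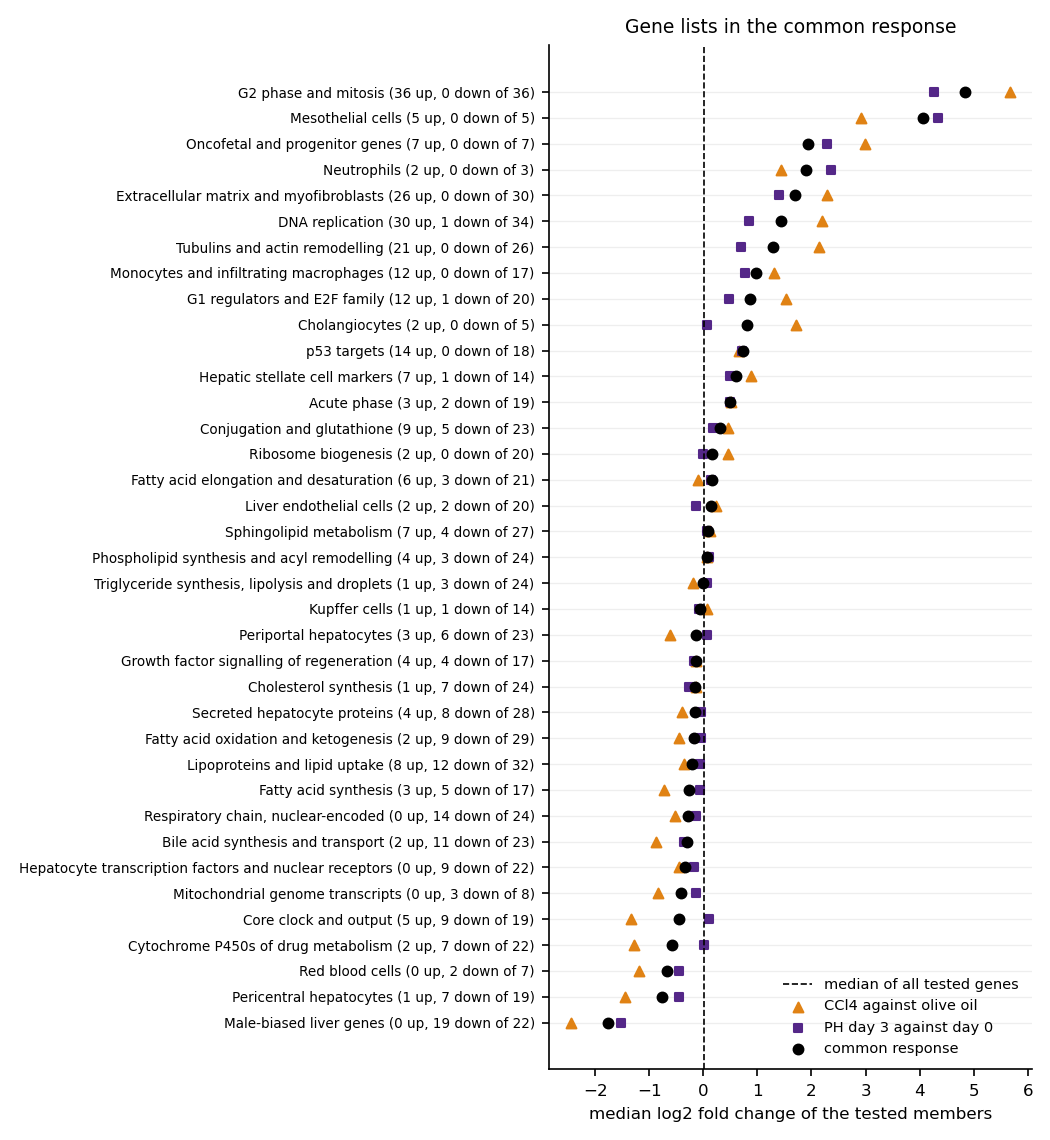
Each row is a gene list with at least 3 tested members, and the markers give the median log2 fold change of its members in the common response (circles), after CCl4 (triangles) and after PH (squares), beside the median of all genes (dashed). Mitosis genes are farthest to the right at 4.84 and male-biased liver genes farthest to the left at -1.76.

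Of 13 oncofetal and progenitor genes 7 could be tested, without Igf2, Igf2bp3, Gpc3, Dlk1, Prom1 and Epcam. All 7 rose, at a median of 1.94, and 2 rose in both experiments alone. Afp, H19 and Ly6d were too low in the controls to enter the test without the challenged livers, so this count is partly fixed by the filter. Afp, the fetal counterpart of albumin, stood at 1.00, 1.54 and 1.89 CPM after olive oil and 15.5, 10.8 and 9.97 CPM after CCl4. Surgical samples held 1.58, 0.497, 1.33, 1.85 and 0.686 CPM at day 0 and 1.37, 4.17, 1.57, 3.92 and 2.38 CPM at day 3, in overlapping ranges. Its common change was 1.94 ± 0.37, adjusted p = 3.9e-04, and its 1.11 after PH did not pass alone (adjusted p = 0.15). Pkm, the muscle-type pyruvate kinase of dividing cells, rose by 1.83 (2.12 and 1.65), and Ly6d, a surface antigen, by 4.71. H19, an imprinted noncoding RNA of fetal liver, had 1 count in the 8 controls and 700 in the challenged livers. Its level at day 3 ranged from 0.341 to 138 CPM, and 650 of these counts were in the surgical experiment. Replicate 12 held the 138 CPM and the other 4 samples of day 3 at most 11.9 CPM, and without PH day 0 replicate 16, the only control with a count, H19 did not pass (adjusted p = 0.087).

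Among the lists, the largest share of falls was in genes expressed more in male than in female liver. Of 22 tested male-biased genes 19 fell and none rose, at a median of -1.76 (-2.44 after CCl4, -1.52 after PH), and 14 fell in both experiments alone. Hsd3b5, a steroid dehydrogenase of male liver (ENSMUSG00000038092, chromosome 3, 98618634 to 98630252, minus strand of GRCm38), stood at 286, 254 and 287 CPM after olive oil and 0.424, 13.3 and 20.3 CPM after CCl4. Surgical samples were at 288, 284, 374, 327 and 359 CPM at day 0 and 27.9, 45.5, 28.3, 32.2 and 25.6 CPM at day 3. The groups did not overlap and the change was -3.79 ± 0.40, adjusted p = 9.5e-06, with CCl4 replicate 1 far below the other 2. Cyp7b1, an oxysterol hydroxylase of bile acid synthesis (ENSMUSG00000039519, chromosome 3, 18071950 to 18243338, minus strand of GRCm38), stood at 474, 559 and 637 CPM after olive oil and 75.5, 78.0 and 112 CPM after CCl4. Its surgical samples were 614, 502, 511, 503.6 and 637 CPM at day 0 and 152, 165, 143, 119.5 and 163 CPM at day 3. It fell by 2.18 ± 0.14 on the log2 scale (adjusted p = 6.3e-10), more after CCl4 (-2.68) than after PH (-1.90, adjusted p of the difference 0.033). The major urinary protein genes Mup7 and Mup17 changed by -2.50 ± 0.22, adjusted p = 3.0e-08 and -2.88 ± 0.28, adjusted p = 5.5e-07. Hsd3b4, Mup17, 3 Mup pseudogenes, the esterase gene Ces4a and Serpina9 were, with Hsd3b5, the 8 fallen genes with the largest smaller change under the same limits. Counts of Mup and Hsd3b genes are uncertain, because near-identical copies share reads that were not counted. Ghr, the growth hormone receptor that drives male-biased genes through STAT5, stood at 638, 513 and 559 CPM after olive oil and 109, 196 and 194 CPM after CCl4. At surgery it was 444, 458, 540, 467 and 538 CPM at day 0 and 289, 330.3, 304, 295 and 329.5 CPM at day 3. Its change was -1.08 ± 0.17, adjusted p = 5.0e-05, again larger after CCl4 (adjusted p of the difference 0.0025). Igf1, a product of growth hormone signalling, lay at the threshold with -0.31 ± 0.12, adjusted p = 0.05. It passed with DESeq2, limma-voom, equal weights and 3 other filters, and without CCl4 replicate 1 (-0.39, adjusted p = 0.0086) or PH day 3 replicate 12 or 15, but not with library-size scaling (adjusted p = 0.55).

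Regulators of hepatocyte identity fell in part. Of 22 transcription factors and nuclear receptors 9 fell and none rose (40.9%), at a median of -0.33. Cebpa, which holds hepatocytes in the differentiated state, stood at 226 to 334 CPM in the 8 controls (median 289.9) and 88.9 to 225 CPM in the 8 challenged livers (median 164), a change of -0.88 ± 0.15, adjusted p = 9.9e-05. Ppara, the receptor that switches on fatty acid oxidation, changed by -0.67 ± 0.13, adjusted p = 5.3e-04. Hnf4a, the central hepatocyte factor, was at 514 to 784 CPM in the 8 controls (median 629.5) and 498 to 734 CPM in the 8 challenged livers (median 619), overlapping groups with a change of -0.05 ± 0.12, adjusted p = 0.79. With library-size scaling, Hnf4a had a change of 0.19 and 4 members of the list fell.

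Zonal genes fell unevenly. Of 19 pericentral genes 7 fell and Ahr rose, at a median of -0.77, and with both experiments weighted equally 13 fell. The rise of Ahr was 0.83 after PH, while 0.08 after CCl4 did not pass (adjusted p = 0.79). Of these 7, 6 also fell in each experiment alone, among them Glul, Cyp2e1, Cyp27a1, Gulo and Slco1b2, and Tbx3 fell with CCl4 only. Slc1a2, a glutamate transporter, fell in each experiment alone but not in the joint model. The difference of the responses passed for 9 of the 19 genes. Glul, the glutamine synthetase of the hepatocytes around the central vein, stood at 788, 882 and 820.3 CPM after olive oil and 59.8, 38.5 and 48.5 CPM after CCl4. Surgical samples held 947, 727, 939, 721 and 852 CPM at day 0 and 368, 417, 624, 439 and 416 CPM at day 3. Its change was -4.11 after CCl4 and -0.89 after PH (adjusted p of the difference 1.7e-08). Cyp2e1, the P450 that activates CCl4, changed by -3.89 and -1.28 (adjusted p of the difference 4.2e-06). Of 23 periportal genes 6 fell and 3 rose, among them the immunoglobulin receptor gene Pigr (-0.86) and Sult5a1 (-1.61). The periportal median of -0.13 became 0.09 with library-size scaling. Of 22 P450s of drug metabolism 7 fell and 2 rose, at medians of -1.28 after CCl4 and 0.02 after PH, with Cyp2d10 and Cyp2j5 down after both (-1.16 and -0.84). Conjugation and glutathione genes split, with 9 of 23 up and 5 down. The heme oxygenase gene Hmox1 and the quinone reductase gene Nqo1, targets of NRF2, rose by 1.21 and 1.40, while the bilirubin-conjugating Ugt1a1 fell by 0.80 on the log2 scale.

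Of 28 genes for secreted hepatocyte proteins 8 fell (28.6%) and 4 rose (14.3%), beside 14.1% and 16.3% of all genes. With CCl4 alone 3 fell and none rose, and with PH alone 9 fell and 5 rose. Without CCl4 replicate 1, 13 fell in the common response. Apoa2, an HDL apolipoprotein, changed by -1.08 ± 0.17, adjusted p = 4.3e-05 and the antitrypsin gene Serpina1c by -0.61. Albumin mRNA rose by 0.48 ± 0.16, adjusted p = 0.023 in the joint model, but changed by -0.01 after CCl4 and 0.76 after PH, and without PH day 0 replicate 12 or 16 it did not pass. Of 19 acute phase genes 3 rose and 2 fell, near the shares of all genes, with the metalloreductase gene Steap4 up (0.84) and Crp down (-0.57). Nuclear genes of the respiratory chain moved in 1 direction, 14 of 24 down and none up (58.3%), by a median of only -0.28. With CCl4 alone 15 fell and with PH alone 3, at medians of -0.53 and -0.14. The complex I genes Ndufa1 and Ndufv1 changed by -0.48 ± 0.09, adjusted p = 4.3e-04 and -0.43 ± 0.09, adjusted p = 0.0012. The common count of 14 was 9 without CCl4 replicate 2 or olive oil replicate 3 and 0 with library-size scaling. Of 8 tested transcripts of the mitochondrial genome 3 fell, mt-Nd2, mt-Nd4 and mt-Nd5, and 1 without CCl4 replicate 2, CCl4 replicate 3 or olive oil replicate 3. With CCl4 alone 5 of these 8 fell and with PH alone 1, at medians of -0.84 and -0.14.

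The series was made for a study of hepatic lipids, and the lipid lists gave a mixed picture. None of the 9 lists moved as a block, and most panel enzymes of fatty acid synthesis did not pass. Fasn, the fatty acid synthase, stood at 287 to 1028 CPM in the 8 controls (median 543) and 129 to 1158 CPM in the 8 challenged livers (median 486) with a change of -0.27 ± 0.37, adjusted p = 0.62. Srebf1, the activator of lipogenic genes, changed by -0.50 ± 0.27, adjusted p = 0.19, and Scd1, the main hepatic stearoyl desaturase, by 0.90 ± 0.60, adjusted p = 0.29. Scd1 ranged from 15.9 to 1345 CPM within the CCl4 group, with CCl4 replicate 1 lowest, and passed without that library. Of 17 genes of fatty acid synthesis 3 rose (Acaca, G6pdx and Pgd) and 5 fell, or 17.6% and 29.4% beside 16.3% and 14.1% of all genes. Among the falls were the citrate carrier gene Slc25a1 (-0.53 ± 0.09, adjusted p = 1.2e-04) and Scap (-0.60 ± 0.11, adjusted p = 3.4e-04), the escort of SREBP. The rise of Acaca, acetyl-CoA carboxylase, was 0.48 ± 0.18, adjusted p = 0.046 and was lost when any of 12 samples was left out.

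In desaturation and chain activation some isoenzymes passed and others did not. Of 21 elongation and desaturation genes 6 rose (28.6%) and 3 fell (14.3%), beside 16.3% and 14.1% of all genes. Scd2, a desaturase of fetal liver and other tissues, stood at 3.26, 10.3 and 2.59 CPM after olive oil and 6.15, 25.9 and 28.6 CPM after CCl4. Surgical samples were at 5.39, 3.48, 6.94, 1.39 and 6.87 CPM at day 0 and 47.3, 18.5, 14.4, 23.7 and 56.6 CPM at day 3. The change was 2.42 ± 0.45, adjusted p = 0.001, and after CCl4 alone 1.87 did not pass (adjusted p = 0.13). Acsl4 and Acsl5, which activate long-chain fatty acids, changed by 0.73 ± 0.10, adjusted p = 1.6e-05 and 0.65 ± 0.11, adjusted p = 1.1e-04, and Acsl4 was higher in every challenged sample than in any control. Fads3 rose by 1.16, whereas the polyunsaturated desaturases Fads1 and Fads2 gave -0.06 ± 0.11, adjusted p = 0.71 and -0.16 ± 0.15, adjusted p = 0.44. The elongases Elovl5 and Elovl6 did not pass, at 0.35 ± 0.17, adjusted p = 0.13 and 0.29 ± 0.29, adjusted p = 0.48, and Elovl5 passed without PH day 3 replicate 14 and with library-size scaling.

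Single phospholipid genes changed, although the list did so no more often than all genes. Chka, the choline kinase that opens phosphatidylcholine synthesis (ENSMUSG00000024843, chromosome 19, 3851773 to 3894369, plus strand of GRCm38), stood at 17.8, 18.7 and 18.6 CPM after olive oil and 169, 154 and 83.2 CPM after CCl4. Its surgical samples held 49.7, 50.2, 41.1, 34.9 and 41.2 CPM at day 0 and 101, 109, 68.2, 88.2 and 83.1 CPM at day 3. All challenged samples were above all controls, with a change of 1.70 ± 0.28, adjusted p = 4.5e-04 that was larger after CCl4 (2.86) than after PH (1.05, adjusted p of the difference 7.5e-04). Pcyt2, the rate-limiting enzyme of phosphatidylethanolamine synthesis, stood at 489 to 574 CPM in the 8 controls (median 522) and 273 to 389 CPM in the 8 challenged livers (median 377), a change of -0.61 ± 0.09, adjusted p = 4.3e-05. Pcyt1a and Pemt, which make phosphatidylcholine by the other steps, gave -0.06 ± 0.10, adjusted p = 0.68 and -0.13 ± 0.09, adjusted p = 0.31. Lpcat3, which puts polyunsaturated chains into phospholipids, fell after CCl4 (-0.92) and was at 0.06 after PH (adjusted p of the difference 7.7e-04). Over the list, 4 of 24 phospholipid genes rose (Chka, Etnk1, Pgs1 and Crls1) and 3 fell (Chpt1, Pcyt2 and Ptdss1), or 16.7% and 12.5%, near the 16.3% and 14.1% of all genes. Of 27 sphingolipid genes 7 rose (25.9%) and 4 fell (14.8%), so that the falls were near the share of all genes. In both experiments alone 2 rose and 1 fell. Sptlc2, a subunit of the enzyme of the first step, and the ceramide synthase gene Cers6 rose by 0.84 ± 0.11, adjusted p = 5.7e-06 and 1.12 ± 0.23, adjusted p = 8.8e-04, and Gba2, a glucosylceramidase, changed by -1.20 ± 0.20, adjusted p = 1.1e-04.

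**Figure D5:**
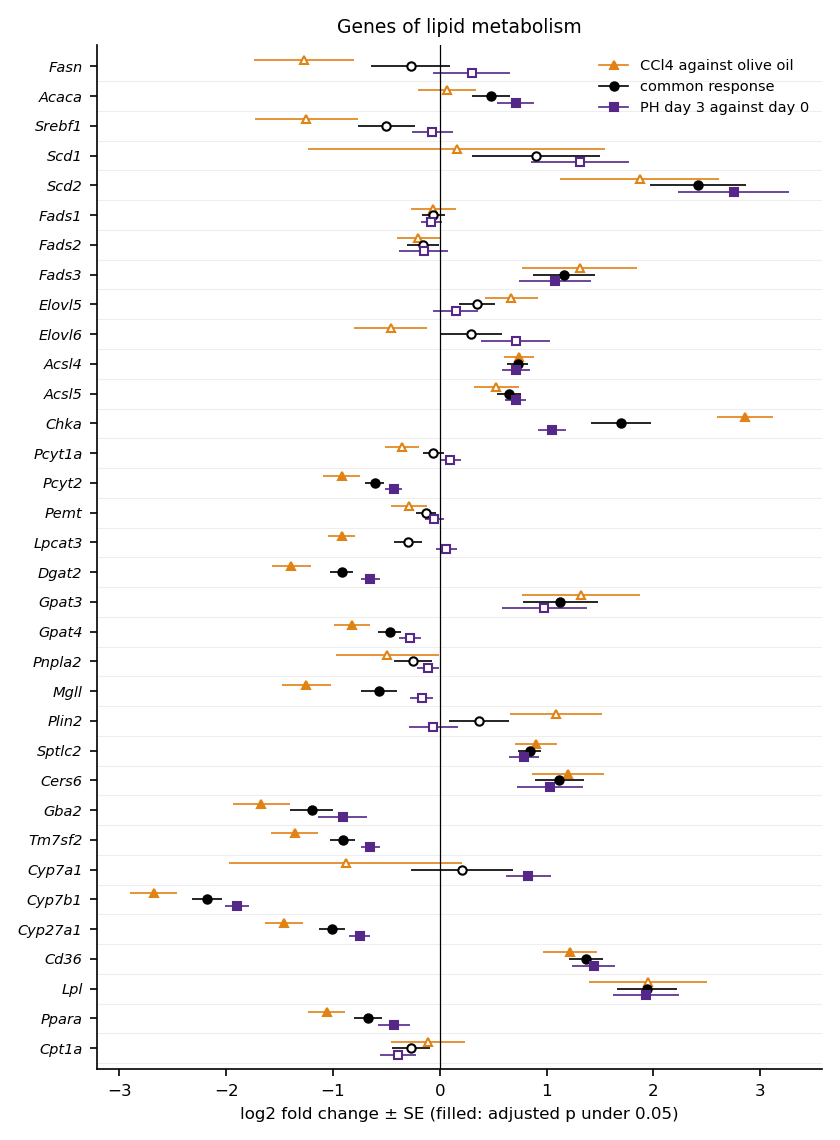
Symbols give log2 fold changes ± SE of 34 lipid genes in the common response (circles), after CCl4 (triangles) and after PH (squares), filled where the adjusted p was under 0.05. Scd2, Lpl, Chka and Cd36 are farthest to the right and Cyp7b1 farthest to the left, while Fads1, Fads2 and Pemt lie near 0.

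Genes of lipid storage, uptake and use were called in both directions. Of 24 triglyceride genes Gpat3 rose (1.13 ± 0.35, adjusted p = 0.017) and Gpat4, Dgat2 and Mgll fell, or 4.17% and 12.5%, below the shares of all genes. Gpat4 and Mgll lost the call with library-size scaling (adjusted p = 0.095 and 0.093), and Mgll also without CCl4 replicate 2. Dgat2, which makes triglyceride from diglyceride, stood at 369.9 to 520.4 CPM in the 8 controls (median 424) and 173 to 277 CPM in the 8 challenged livers (median 239) and changed by -0.92 ± 0.11, adjusted p = 2.9e-06. Its fall was -1.39 after CCl4 and -0.65 after PH (adjusted p of the difference 0.0087). The droplet coat gene Plin2 and the lipase gene Pnpla2 did not pass (0.37 ± 0.28, adjusted p = 0.34 and -0.25 ± 0.18, adjusted p = 0.34), although Pnpla2 passed without CCl4 replicate 1 (-0.45, adjusted p = 0.022). The fatty acid transporter Cd36 rose by 1.37 ± 0.16, adjusted p = 1.3e-06, by 1.22 after CCl4 and 1.44 after PH. Lpl, a lipoprotein lipase that adult hepatocytes hardly make, had 7.77 to 34.3 CPM in the 8 controls (median 21.4) and 45.4 to 169 CPM in the 8 challenged livers (median 80.1), without overlap, and changed by 1.94 ± 0.28, adjusted p = 1.4e-04. Of 32 genes of lipoproteins and lipid uptake 8 rose and 12 fell, the sterol exporter gene Abcg8 by -1.07 ± 0.10, adjusted p = 9.2e-08. Of 29 genes of fatty acid oxidation and ketogenesis 9 fell and 2 rose (Etfb and Pdk4). Decr2 and Eci1, auxiliary enzymes for the oxidation of unsaturated fatty acids, changed by -0.63 and -0.62, whereas Cpt1a, the gate of mitochondrial oxidation, gave -0.27 ± 0.18, adjusted p = 0.26 and passed without CCl4 replicate 1 (-0.46, adjusted p = 0.008). The medians of these last 2 lists, -0.21 and -0.18, became 0.03 and 0.08 with library-size scaling, and 3 oxidation genes then fell and 7 rose.

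Sterol genes fell more often than they rose. Of 24 cholesterol synthesis genes 1 rose and 7 fell, or 4 without olive oil replicate 1 and 1 with library-size scaling. Tm7sf2, a sterol reductase, changed by -0.91 ± 0.12, adjusted p = 9.9e-06. Of 23 genes of bile acid synthesis and transport 11 fell (47.8%) and 2 rose (Cyp39a1 and Slc51b). Cyp27a1, the sterol hydroxylase of the alternative pathway, changed by -1.01 ± 0.12, adjusted p = 1.3e-06. Slco1b2, a bile acid importer, changed by -1.75 after CCl4 and -0.57 after PH (adjusted p of the difference 0.0012). Cyp7a1, the rate-limiting enzyme of the classic pathway, stood at 116 to 262 CPM in the 8 controls (median 151) and 8.70 to 371 CPM in the 8 challenged livers (median 222). It had a common change of 0.21 ± 0.48, adjusted p = 0.78, and it rose after PH (0.83, adjusted p = 0.027) and was at -0.88 after CCl4 without passing (adjusted p = 0.62).

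Growth signals showed no single direction. Of 17 genes 4 rose (Hgf, Tgfb1, Inhba and Igfbp1) and 4 fell (Egfr, Inhbe, Socs2 and Ghr). Hgf, the main mitogen of hepatocytes, rose by 1.21 ± 0.33, adjusted p = 0.0072, with 0.61 after PH not passing alone (adjusted p = 0.3). Inhbe, a hepatocyte activin chain, changed by -1.04 ± 0.22, adjusted p = 0.0017. Of 19 clock genes 5 rose and 9 fell, at medians of -1.34 after CCl4 and 0.10 after PH. Olive oil and PH day 0 samples did not overlap for Dbp, Arntl, Per3 or Clock, a difference that was not tested. The clock output gene Dbp stood at 138, 118 and 157 CPM after olive oil and 4.03, 20.4 and 18.3 CPM after CCl4. In the surgical samples it was 5.65, 29.6, 51.2, 46.4 and 18.2 CPM at day 0 and 6.85, 22.4, 4.08, 4.15 and 9.54 CPM at day 3. Arntl, which drives that output, was at 1.75, 1.76 and 0.708 CPM after olive oil but 26.9, 9.93, 11.2, 10.8 and 12.4 CPM at PH day 0. The labels give no time of day, and its part in these genes was not tested. Clock rose in both (0.95 and 0.54), with 21.6 to 27.4 CPM after olive oil and 27.8 to 42.6 CPM at PH day 0. Its 8 controls had a median of 31.9 CPM, and the 8 challenged livers held 43.4 to 63.4 CPM (median 49.9).

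Some common calls rested on 1 challenge, and others only on both together. The risen calls with the smallest adjusted p for the difference were Tubb5, Dek, Pole and Chka, and the fallen ones Glul, Cyp2e1, Acaa1b and Car5a, each larger after CCl4. Tubb5, a tubulin of dividing cells, rose by 2.21 and 0.66, and the chromatin gene Dek by 1.24 after CCl4, against 0.06 after PH (adjusted p = 0.81). The peroxisomal thiolase gene Acaa1b changed by -2.34 and -0.18, and the mitochondrial carbonic anhydrase gene Car5a by -1.84 and -0.11. Their PH values did not pass (adjusted p = 0.31 and 0.55), and both lost the common call with library-size scaling and without CCl4 replicate 2 or 3, Acaa1b also without any other sample of the injection experiment or PH day 3 replicate 15. On the other side, 442 risen and 358 fallen genes passed in neither experiment alone. Those with the smallest adjusted p were the thioesterase gene Acot9, the histone deacetylase gene Hdac2, the integrin gene Itgam and Zfp770, which rose, and Abhd16a, Chchd7, Cnot3 and the prefoldin gene Pfdn2, which fell. The calls of these 4 fallen genes were lost with library-size scaling (adjusted p = 0.36, 0.058, 0.3 and 0.31). Hdac2 stood at 16.4 to 23.8 CPM in the 8 controls (median 18.3) and 23.9 to 30.2 CPM in the 8 challenged livers (median 24.4), and its change of 0.46 ± 0.11, adjusted p = 0.0023 was 0.54 after CCl4 and 0.40 after PH. Finally, 18 genes passed in opposite directions, 16 down after CCl4 and up after PH and 2 the reverse, Id2 and Ier2, and none of the 18 was a common call.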

How the data were processed

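Each deposited file holds the raw gene counts of 1 sample. The authors ran featureCounts on exons of Ensembl 95 genes (GRCm38) with the reverse strand setting, and reads that map to several places or overlap several genes were left uncounted, per the file headers. The submitters' processing notes name STAR 2.5.1 and Subread. All 16 samples were on 1 lane, and the headers place the injection and surgical samples in 2 experiments. Symbols came from GENCODE M21, which matched 54809 of 54838 identifiers.

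The test on the counts was the robust quasi-likelihood test of edgeR 4.0.16 (TMM factors, filterByExpr with minimum count 10 and minimum total 15) in R 4.3.3. The common response used challenge and experiment as additive terms, each experiment was also fitted alone, and the difference of the responses came from a 4-group fit of all 16 samples. The 10 surgical samples weigh more than the 6 injection samples in the additive model. Calls were Benjamini-Hochberg adjusted p under 0.05 over all genes of a fit. SE was obtained from the log2 fold change and the F statistic. A count of 3 in 1 sample was 0.37 to 1.03 CPM, and intervals and floors cover counting error only. Simulated counts had 1 baseline for both experiments and the same change in each. Of the 11868 genes, 67, 67 and 66 were changed 1.5-fold, 2-fold and 4-fold. These changes were called in 50.7%, 74.6% and 93.9% of cases, and 12 of 158 calls were of unchanged genes. Baselines and responses of the real data differ between the experiments, so the simulated rates are not those of the comparison above. No 2 files were identical, and replicates differed by a chi-square per degree of freedom of 5.51 to 72.3. The labels do not tie each sample to its own animal, so p-values rest on the spread between samples, which may be technical.

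The lists (38, with 797 genes) and the naming rule were chosen with earlier results of these data known. Named were a panel of 34 genes, the 8 risen and 8 fallen genes with the largest smaller change of the 2 experiments (called in both alone, no overlap, mean of at least 5 CPM in challenged or control livers, predicted genes left out), the 2 called members per list with the smallest adjusted p, the 4 calls per direction with the smallest adjusted p for the difference, and the 4 per direction called in neither experiment alone. Other genes, among them members behind small counts, were named after their values were seen. Some genes that the rule names are not reported here. Alternatives were other scalings and filters, DESeq2 1.42.0, limma-voom (limma 3.58.1), no covariate, equal weight of the experiments, a replicate block and each sample left out. Promoters were RefSeq windows of 300 bases, 1 per gene, nearest to the GENCODE start.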

Additional observations from a re-analysis of the deposited data

Results flagged for a closer look

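The responses to the 2 challenges differed, by the test of the difference with an adjusted p under 0.05, for 31 of the genes named in the report. Values are the log2 difference, CCl4 minus PH, in the 4-group fit. Larger rises after CCl4 were those of Gpnmb (6.55), Pole (3.45), Top2a (3.32), Arntl (2.92), Cdkn1a (2.91), Trem2 (2.64), Chka (1.83), Mcm2 (1.62), Tubb5 (1.57), Nop58 (1.22), Dek (1.21), Pcna (1.20) and Rrm1 (1.09). Lower values after CCl4 were those of Mup-ps7 (-5.69, with 0 counts in the CCl4 group, so that this value depends on the prior count), Glul (-3.20), Cyp2e1 (-2.59), Acaa1b (-2.14), Car5a (-1.70), Alas2 (-1.58), Mup17 (-1.54), Mup7 (-1.34), Slco1b2 (-1.15), Ghr (-1.11), Mgll (-1.05), Lpcat3 (-0.95), Apoa2 (-0.90), Cyp7b1 (-0.75), Dgat2 (-0.72), Eci1 (-0.71), Cyp27a1 (-0.68) and Cyp2j5 (-0.64).

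Single PH samples lay far from the other 4 of their group by Dixon's ratio, which chance alone exceeds in about 1 of 20 groups. With 145 named genes in both PH groups, many of the samples below may be flagged by chance. At day 0 the highest samples were replicate 12 for Arntl (26.9 CPM), Bub1 (0.263 CPM) and Cpe (0.131 CPM), replicate 13 for Pnpla2 (78.5 CPM) and Ppara (54.9 CPM), replicate 15 for Mki67 (5.31 CPM) and Ccnb1 (0.231 CPM), and replicate 16 for Acsl4 (88.6 CPM), Cyp2d10 (574.9 CPM), H19 (0.343 CPM) and Muc16 (1.03 CPM). The lowest at day 0 were replicate 13 for Clec4g (28.8 CPM) and Cyp27a1 (475 CPM). At day 3 the highest were replicate 12 for H19 (138 CPM) and Lpl (169 CPM), replicate 14 for Glul (624 CPM) and Hba-a1 (465.9 CPM), replicate 15 for Melk (6.45 CPM) and replicate 16 for Fads1 (548 CPM). Values under 0.37 CPM rest on fewer than 3 counts. For Bub1, Ccnb1, Cpe, H19 and Muc16 the other 4 samples of day 0 had no count. Any count is then flagged, and the rate of 1 in 20 does not apply to them.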

How the results depend on the processing

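Common calls kept within 1.5 times of 1934 risen and 1678 fallen genes under DESeq2, limma-voom, the other scaling factors, all filters, equal weights and no covariate, and ran from 1649 to 1930 and from 1396 to 1715 when samples were left out. Library-size scaling gave 3686 and 634 common calls, 2992 and 435 after CCl4, 1829 and 459 after PH, 1161 and 188 in both, and 481 higher and 153 lower differences. Common calls numbered 1192 and 976 at an adjusted p under 0.01, and 848 and 299 with an absolute change of at least 1. DESeq2 gave 279 higher differences. Left-out samples gave 702 to 1666 and 780 to 1835 calls after CCl4, 964 to 1088 and 751 to 867 after PH, 409 to 716 and 376 to 627 in both, and 83 to 253 and 316 to 698 differences. The lowest came without olive oil replicate 3 for CCl4, and 698 without CCl4 replicate 1. PH labels at day 0 and day 3 share the numbers 12 to 16, without saying whether a number is 1 animal. Between day 0 and day 3 samples of the same number, deviations from the group means had r of -0.0297 to 0.103. Pairs of different numbers had r of -0.0881 to 0.0474. The highest values, 0.103 and 0.0756, were those of numbers 16 and 15. These values cannot decide whether samples were paired by number. With that number as a replicate block, 1741 genes rose and 1474 fell in the common response, 1154 and 887 after PH, and 124 and 345 differed. Changes of uncalled genes turned sign for Cyp7a1 (-0.01 with equal weights, -0.16 with limma-voom), Scd1 (-0.05 with limma-voom) and Pcyt1a (-0.10 to 0.01 when samples were left out, the latter without olive oil replicate 2), and with library-size scaling for Fads1 (0.20), Fads2 (0.09), Hnf4a (0.19), Pcyt1a (0.20) and Pemt (0.11). The cause was not tested. Small list counts moved when single samples were left out, namely acute phase genes (1 to 4 risen, 1 to 2 fallen), bile acid genes (1 to 2 risen), growth signals (2 to 4 risen), endothelial markers (0 to 2 risen), red cell genes (1 to 5 fallen), ribosome biogenesis (1 to 4 risen), triglyceride genes (1 to 2 risen, 2 to 5 fallen), cholesterol synthesis (4 to 10 fallen) and P450s (2 to 4 risen). Depth limits the genes with few counts in controls to bounds and wide intervals.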
